A study of Rattus norvegicus with 6 samples.

Results

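Cyp2e1 and Nat1 encode enzymes that process foreign chemicals, and each was represented by 1 probe of a linear transcript on a circular RNA (circRNA) array of rat lung. The members were chosen by probe name, A_44_P409232 for Cyp2e1 (transcript NM_031543) and A_44_P276435 for Nat1 (transcript NM_053853), after earlier results of the same arrays were known. They are 2 of the 38 genes named by the array's linear transcript probes, and 2 of 14227 non-control probes in all. The contrast between hypoxia and normoxia was in view when they were picked, so their changes are given as a description and support no claim.

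The arrays compared lung samples from male rats kept in normoxia (3 arrays) and in 10% oxygen (3 arrays), a chamber exposure that models pulmonary arterial hypertension. Both groups were exposed for 21 days and were labelled with an age of 6 weeks; the labels state neither a strain nor the oxygen level of normoxia. Lungs were flushed with phosphate-buffered saline and total RNA was extracted from the whole tissue. The RNA was then digested with RNase R, an exonuclease that degrades linear RNA and spares closed circles, and what was left was copied from random primers and labelled with the dye Cy3. The labels number the samples of each group 1 to 3 and do not state that separate animals were used for them, so the spread between samples may be partly technical.

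Cyp2e1 is a cytochrome P450 that oxidises small molecules such as ethanol, acetone and acetaminophen, the first step of their removal, and it can release reactive oxygen species as it works. It is most abundant in liver and is also found in lung. Nat1 is an arylamine N-acetyltransferase, a conjugating enzyme that moves an acetyl group from acetyl-CoA onto aromatic amines and hydrazines. The oxidising enzymes usually act first, and conjugating enzymes then make the product easier to excrete.

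Upstream sequence was found for 1 of the 2 genes in RefSeq's promoter table. It is shown because it is the regulatory stretch next to the start of Cyp2e1, and the probe's own sequence was not used here. The 250 bases before the annotated start lie at chr1:205269717-205269966 on the plus strand of GRCr8, and the capitals mark TATAAA at positions -49 to -44 from the start:

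Cyp2e1 upstream: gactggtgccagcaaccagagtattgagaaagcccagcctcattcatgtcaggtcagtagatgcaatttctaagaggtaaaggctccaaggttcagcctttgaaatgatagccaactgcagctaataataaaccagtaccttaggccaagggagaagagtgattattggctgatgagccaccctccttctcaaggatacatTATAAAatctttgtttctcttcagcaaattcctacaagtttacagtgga

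TATAAA, searched on both strands, was present in 12.9% of 33469 upstream windows of the same length. The letters ACGTG and GCGTG, the core of the element bound by hypoxia-inducible factors, were found 0 times on either strand of the Cyp2e1 window. At least one of them was present in 36.7% of all windows. These are matches of letters in a short window and say nothing of factor binding in lung.

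Each probe was printed in 10 spots on every array, so that each RNA preparation was read repeatedly, and both probes were dim. No non-control spot of any array was saturated. The 75th percentile of the processed signal, to which levels were scaled, lay between 92.6 and 171.4. Marker genes, 44 in all, were listed for lung epithelium, endothelium, smooth muscle and fibroblasts, leukocytes, erythrocytes and hepatocytes. None was among the genes matched to linear probes, of which 39 of 62 had a symbol, and circRNA probes were not searched. The tissue label was therefore not checked against its cell types. In whole lung, fewer cells of a type and less RNA per cell cannot be told apart. Linear probes read only what RNase R had left, so the levels below are not direct amounts in lung. Whether the digestion left the same share of linear RNA in each sample was not tested.

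The Cyp2e1 probe stood clear of background in both groups. Its processed signal is the spot's brightness after subtraction of background and, except on normoxia 1, a multiplicative detrending across the array. Over the 10 spots of normoxia 1 it ran from 11.2 to 17.1 with a median of 15.0. On normoxia 2 it ran from 19.03 to 23.3 with a median of 21.03, and on normoxia 3 from 10.2 to 16.8 with a median of 13.0. Normoxia 2 was the brightest of the normoxia arrays. Hypoxia 1 gave spots from 40.02 to 57.4 with a median of 45.1. Hypoxia 2 gave 17.2 to 21.8 with a median of 19.5, and hypoxia 3 gave 20.1 to 32.2 with a median of 27.03. Hypoxia 1 was far above the rest, hypoxia 3 was intermediate, and hypoxia 2 lay within the range of the normoxia arrays. Every spot of hypoxia 1, most spots of hypoxia 3 and no spot of hypoxia 2 were brighter than the brightest normoxia spot. These signals are not scaled between arrays, and the median tested linear transcript probe was also higher in hypoxia, by 0.40 log2 units.

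The Nat1 probe was closer to background. Its processed signal ran from 3.92 to 8.26 with a median of 6.77 on normoxia 1, from 8.001 to 11.2 with a median of 9.21 on normoxia 2, and from 2.73 to 9.80 with a median of 7.04 on normoxia 3. On hypoxia 1 it ran from 8.84 to 14.9 with a median of 12.9, on hypoxia 2 from 8.81 to 14.3 with a median of 12.1, and on hypoxia 3 from 10.9 to 15.2 with a median of 13.3. Every hypoxia array had a higher median than every normoxia array, and the 3 hypoxia arrays lay close together. The same arrangement of unscaled medians was found for 8.82% of the 34 linear transcript probes tested, and the median of these probes was itself 0.40 log2 units higher in hypoxia before scaling. Single spots overlapped: the dimmest hypoxia spot, at 8.81, lay below the brightest normoxia spot, at 11.2.

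**Figure D1:**
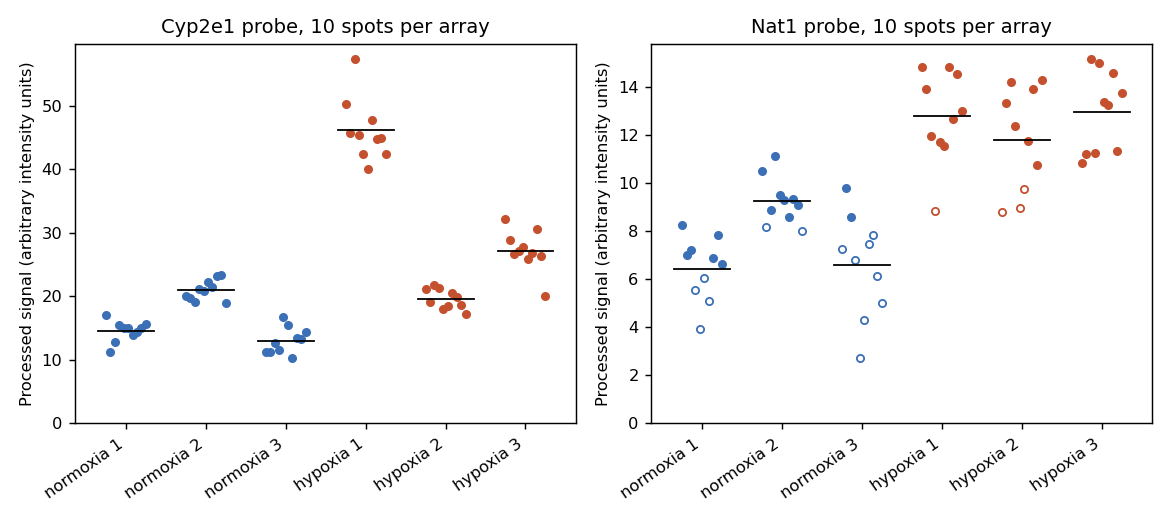
Processed signal (arbitrary intensity units) of each of the 10 spots of the Cyp2e1 probe (left) and the Nat1 probe (right) on the 6 arrays; filled points were flagged well above background, open points were not, and lines are array means over all 10 spots. Hypoxia 1 stands apart for Cyp2e1 with a mean of 46.1, while the Nat1 means are 6.46 to 9.27 in normoxia and 11.8 to 13.0 in hypoxia.

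The feature extraction software's flag for a spot well above background separated the probes. All 60 Cyp2e1 spots carried it. For Nat1 the flag was set on 6, 8 and 2 of 10 spots for normoxia 1, 2 and 3, and on 9, 7 and 10 for hypoxia 1, 2 and 3. That is 16 of 30 normoxia spots and 26 of 30 hypoxia spots, and normoxia 3 was the array on which Nat1 was mostly unflagged. Over all 62 linear transcript probes the flagged share was 52.6% in normoxia and 51.9% in hypoxia, with 7 probes having more flagged spots in hypoxia, 10 fewer and 45 the same number.

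The array's negative control, a probe of 77 spots designed to match no transcript, gave a direct measure of unspecific brightness. Its spot medians averaged between 25.2 and 29.1 over the 6 arrays, with SDs from 1.34 to 2.05 between spots. The median Cyp2e1 spot was brighter than this mean by 15.6, 21.9 and 13.1 scanner units on normoxia 1, 2 and 3, and by 44.5, 20.2 and 28.6 on hypoxia 1, 2 and 3. The median Nat1 spot exceeded it by 7.31, 10.1 and 6.64 on normoxia 1, 2 and 3 and by 14.5, 13.7 and 14.3 on hypoxia 1, 2 and 3. On this unscaled measure every hypoxia array exceeded every normoxia array for Nat1, as for 8.82% of the 34 tested linear probes, and the Cyp2e1 groups overlapped. All 60 Cyp2e1 spots and 59 of 60 Nat1 spots were brighter than the brightest negative control spot of their array. The local background around the probes' spots was slightly lower in hypoxia: its median beside Cyp2e1 was 19.5 to 21.2 on normoxia and 18.0 to 18.5 on hypoxia arrays, and beside Nat1 19.0 to 19.5 and 17.0 to 19.0. Its part in the result was not tested.

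**Figure D2:**
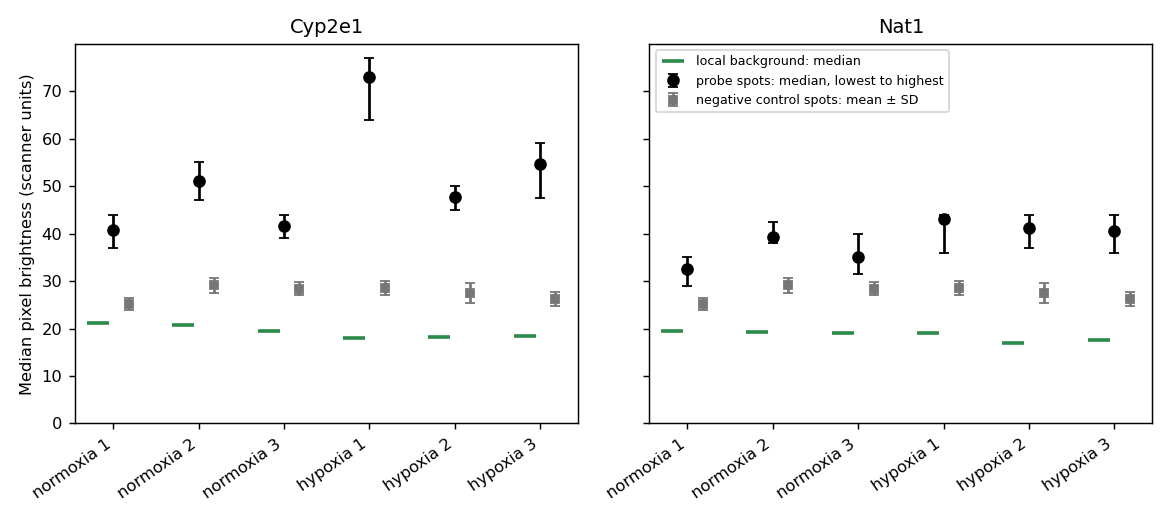
Median pixel brightness (scanner units) of the Cyp2e1 spots (left) and the Nat1 spots (right) on each array, as the median with the lowest and highest spot, beside the negative control spots (mean ± SD of 77 spots) and the median local background. Nat1 sits between 32.5 and 43.0, a small step above negative controls at 25.2 to 29.1, and Cyp2e1 between 40.8 and 73.0.

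Levels were compared between arrays as log2 of the processed signal minus the array's log2 75th percentile, so that a value of 0 means a signal equal to that percentile. For Cyp2e1 the mean over spots was -2.84, -3.03 and -2.84 on normoxia 1, 2 and 3, and -1.80, -3.10 and -2.18 on hypoxia 1, 2 and 3. Scaling drew the normoxia arrays together, whereas hypoxia 2 had the lowest level of all 6 arrays and hypoxia 1 the highest. The group means were -2.91 ± 0.11 in normoxia and -2.36 ± 0.67 in hypoxia (SD, n = 3), a difference of 0.55 (SE 0.32). This SE, like those of the other differences, is from a joint limma fit that pools the spread of the probes in part. It does not follow from the 2 SDs alone, and the residual SD of Cyp2e1 itself was 0.48. Without hypoxia 1 the difference was 0.27, and without hypoxia 2 it was 0.92.

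For Nat1 the level was -4.01, -4.20 and -3.89 on normoxia 1, 2 and 3, and -3.60, -3.85 and -3.30 on hypoxia 1, 2 and 3. The lowest hypoxia array lay above the highest normoxia array by 0.04. That normoxia array was normoxia 3, with 2 of 10 spots flagged. The SE of its mean over spots, 0.17, was larger than the gap. Group means were -4.03 ± 0.15 and -3.58 ± 0.28 (SD, n = 3), a difference of 0.45 (SE 0.23). Leaving out 1 array at a time kept the difference between 0.31 and 0.59. With only the spots flagged above background it was 0.24, a selection that dropped most of the dim spots of normoxia 3.

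The 34 linear transcript probes with at least a 0.5 share of flagged spots on 3 or more arrays were fitted together in limma; Cyp2e1 met this filter on 6 arrays and Nat1 on 5. Of the 34 probes 2, or 5.88%, passed the adjusted threshold of 0.05, both lower in hypoxia. Of Cyp2e1 and Nat1, 0 passed in limma. Levels on every hypoxia array above every normoxia array, as for Nat1, were found for 8.82% of the 34 probes. Groups that did not overlap, in either direction, were found for 23.5%. When limma weighted the arrays by their agreement over circRNA probes, the weight was 5.08 for normoxia 3, 6.24 for hypoxia 3 and at most 0.61 for the other 4 arrays. In this fit, carried mainly by 1 array of each group, both genes passed, as did 38.2% of the 34 probes. The 2 genes were chosen with this contrast known, so nothing is read from these counts.

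**Figure D3:**
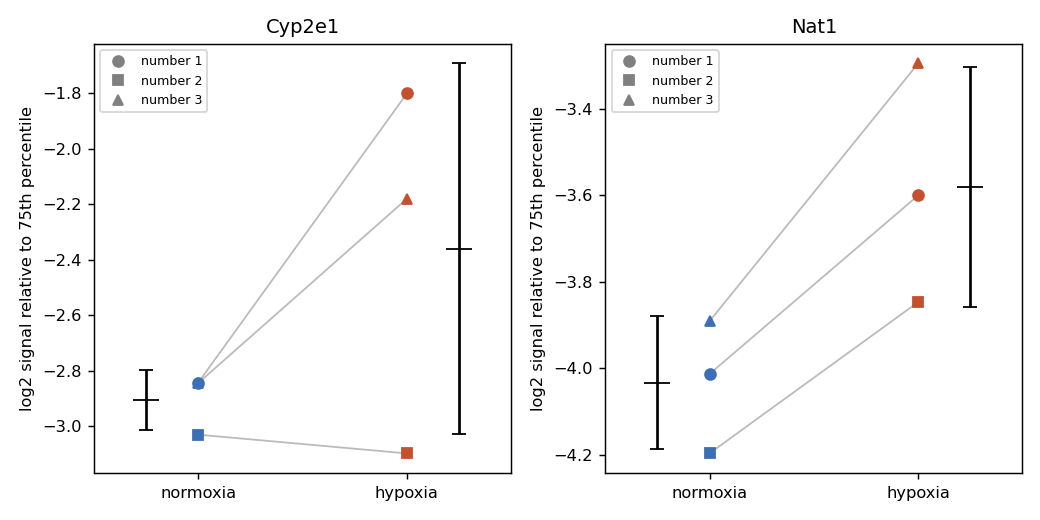
Level of Cyp2e1 (left) and Nat1 (right) on each array, as log2 signal relative to the array's 75th percentile; grey lines join samples with the same number, and black bars are group means with SD (n = 3). The Cyp2e1 hypoxia arrays span 1.30 log2 units against 0.19 in normoxia, and Nat1 is higher in hypoxia in all 3 same-numbered pairs.

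Same-numbered samples were also set side by side, since both groups carry the numbers 1 to 3. Cyp2e1 differed by 1.04, -0.07 and 0.66 (log2, hypoxia minus normoxia) in pairs 1, 2 and 3. Nat1 differed by 0.41, 0.35 and 0.60 in the same pairs. Pair 2 showed no higher Cyp2e1 level in hypoxia, while all 3 pairs were higher for Nat1. A difference above 0 in all 3 pairs was found for 23.5% of the 34 probes. In pair 2 both genes had their smallest difference and in both groups their lowest level.

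On the log2 scale the SD between spots of 1 array had a median of 0.13 for Cyp2e1 (0.11 to 0.22) and 0.23 for Nat1 (0.14 to 0.55), the highest value for Nat1 being that of normoxia 3. The SE of an array's mean over its spots was 0.03 to 0.07 for Cyp2e1 and 0.05 to 0.17 for Nat1. The SD of the array means was 0.11 in normoxia and 0.67 in hypoxia for Cyp2e1, and 0.15 and 0.28 for Nat1. The SE covers repeat spots of 1 preparation only, whereas the SD also holds the differences between samples. Spots of 1 array share an RNA preparation and are not replicates of a condition.

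Slide position was linked to the groups. All 6 arrays were on 1 slide, with the 3 normoxia arrays and hypoxia 1 in row 1 and hypoxia 2 and 3 in row 2. Within row 1, where hypoxia was hypoxia 1 alone, the difference was 1.10 for Cyp2e1 and 0.43 for Nat1. An SE from 1 hypoxia array would hold no spread between hypoxia samples, so none is given. Row 2 held no normoxia array and gave no value. With the row as a block the estimates had the same size, since they rest on the same array, with SEs of 0.40 for Cyp2e1 and 0.37 for Nat1.

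Among the 34 tested probes, ordered from the largest increase to the largest decrease, Cyp2e1 was at place 3 and Nat1 at place 5. Of the 34 estimates 18 were above 0, with a median of 0.04. Directly above Cyp2e1 stood the transcript ENSRNOT00000075517 with 0.58. Ndfip1, an adaptor of ubiquitin ligases, stood between the members with 0.49 (SE 0.29), and the transcript ENSRNOT00000052363 followed Nat1 with 0.44. These neighbours differed from Cyp2e1 and Nat1 by less than the SEs. The probes ahead of both members also included TC585145 with 0.78. Over the 6 arrays Cyp2e1 had the seventh largest SD of the 34 probes, 0.52, and Nat1 was at place 21 with 0.32.

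**Figure D4:**
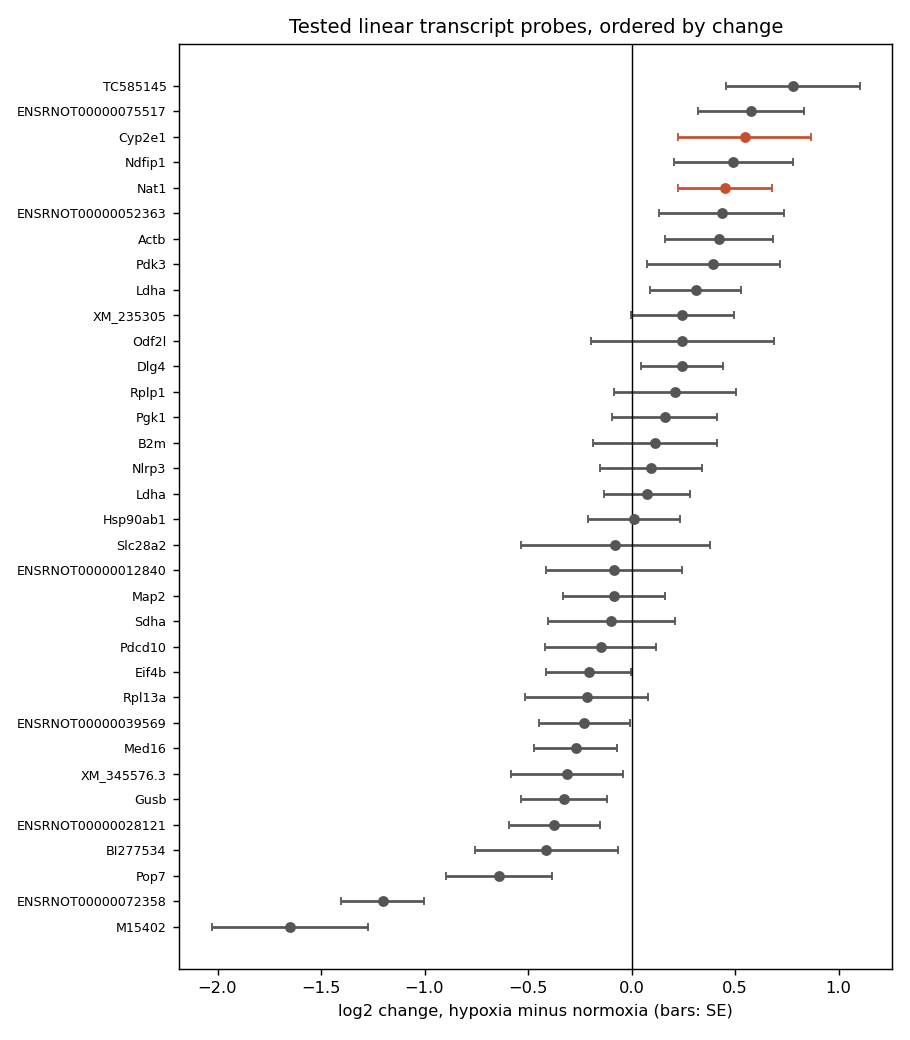
Log2 change, hypoxia minus normoxia, of the 34 tested linear transcript probes with SE, ordered by size, with Cyp2e1 and Nat1 in red; probes with no matched symbol carry their transcript identifier, and Ldha has 2 probes. The members, at 0.55 and 0.45, lie among several probes of similar size, and the 2 probes that passed the adjusted threshold are the lowest.

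Few other genes of xenobiotic metabolism could be set beside them. In all, 116 genes were listed as oxidising enzymes, conjugating enzymes, deconjugating enzymes, regulators and transporters. Linear probes with a matched symbol, 39 of 62, covered Cyp2e1, Nat1 and 1 more of them, Gusb. Gusb encodes beta-glucuronidase, a lysosomal enzyme that removes glucuronic acid from conjugates, and is also used as a reference gene. Its level was -3.10, -3.08 and -2.83 on normoxia 1, 2 and 3, and -3.51, -3.20 and -3.28 on hypoxia 1, 2 and 3. All hypoxia arrays were below all normoxia arrays. Groups that did not overlap, in either direction, were found for 23.5% of the 34 tested probes. The Gusb difference of -0.33 (SE 0.21) did not pass in limma (adjusted p = 0.46). It turned to 0.60 under normexp without an offset, 0.18 with it and 0.03 without scaling. In the lists, 0 of 1 oxidising, 0 of 1 conjugating and 0 of 1 deconjugating probe passed in either direction. The Ahr, Nfe2l2, Nr1i2 and Nr1i3 regulators and the other listed P450, glutathione transferase and glucuronosyltransferase genes had no linear probe with a matched symbol. Which genes the linear probes without a symbol measure was not determined.

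Nat1 has close relatives. RefSeq lists the related genes Nat2 and Nat3 in rat, and in GRCr8 the annotated span of Nat2 overlaps that of Nat1. No linear probe was assigned to Nat2 or Nat3, and how far the Nat1 probe also binds their transcripts was not tested. NM_053853 is 1 of 11 RefSeq transcripts of Nat1, whereas Cyp2e1 has 1.

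Genes of a reference list, which includes Ldha, Pgk1 and Gusb, were described in the same way. Whether they are steady in hypoxia was not tested. The 10 tested probes of the reference gene list had a median change of 0.09, from -0.33 for Gusb to 0.42 for Actb, the cytoskeletal actin (SE 0.26), and 0 of the 10 passed in limma. Actb lay at 2.04, 2.86 and 2.80 on normoxia 1, 2 and 3, and at 3.03, 2.99 and 2.94 on hypoxia 1, 2 and 3. Its hypoxia arrays were also all above its normoxia arrays, so this arrangement occurred in a reference gene as well as in Nat1. When levels were scaled to the median of the 34 linear probes in place of the 75th percentile, Cyp2e1 differed by 0.59 (SE 0.39) and Nat1 by 0.49 (SE 0.31), and the Nat1 groups then overlapped, with hypoxia 2 at -2.49 and normoxia 1 at -2.16.

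The patterns over arrays were compared by the root mean square difference between probes, each centred on its own mean over the 6 arrays. Among 22 other tested probes of named genes, Nat1 was the nearest to Cyp2e1, at 0.31 log2 units. Dlg4, a postsynaptic scaffold protein, followed at 0.38, and an Ldha probe, for a lactate dehydrogenase subunit, at 0.40. The nearest to Nat1 were both Ldha probes, at 0.20 and 0.21, and Dlg4 at 0.22, with Cyp2e1 at place 5. A small difference can also come from a flat profile: the first Ldha probe stayed within -0.15 and 0.25 of its mean. TC585145, which has no symbol here and was singled out after its values were seen, lay at 0.27 from Cyp2e1, nearer than any named probe. Relative to its own mean it was 1.05 on hypoxia 1, -0.21 on hypoxia 2 and 0.32 on hypoxia 3, where Cyp2e1 was 0.83, -0.47 and 0.45. Both were thus highest on hypoxia 1 and lowest, among hypoxia arrays, on hypoxia 2.

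The values moved with the treatment of background, and the cause was not tested. With spot medians and no background correction the Cyp2e1 difference was 0.10 (SE 0.20) and that of Nat1 turned to -0.07 (SE 0.18). In that setting the median change of the 34 linear probes was -0.12, so that relative to this median Cyp2e1 stood at 0.22 and Nat1 at 0.05. With the negative control mean subtracted from each spot median, the differences were 0.50 for Cyp2e1 and 0.48 for Nat1. Normexp correction without an offset gave 0.84 (SE 0.59) and 1.06 (SE 0.68) while the median probe shifted by 0.42, and with an offset of 50 it gave 0.28 and 0.28 with a shift of 0.16. Before any scaling between arrays the processed signal differed by 0.90 for Cyp2e1 and 0.81 for Nat1, against 0.40 for the median linear probe and 0.34 for the median circRNA probe. Part of the unscaled difference was therefore shared with the other probes of the hypoxia arrays.

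**Figure D5:**
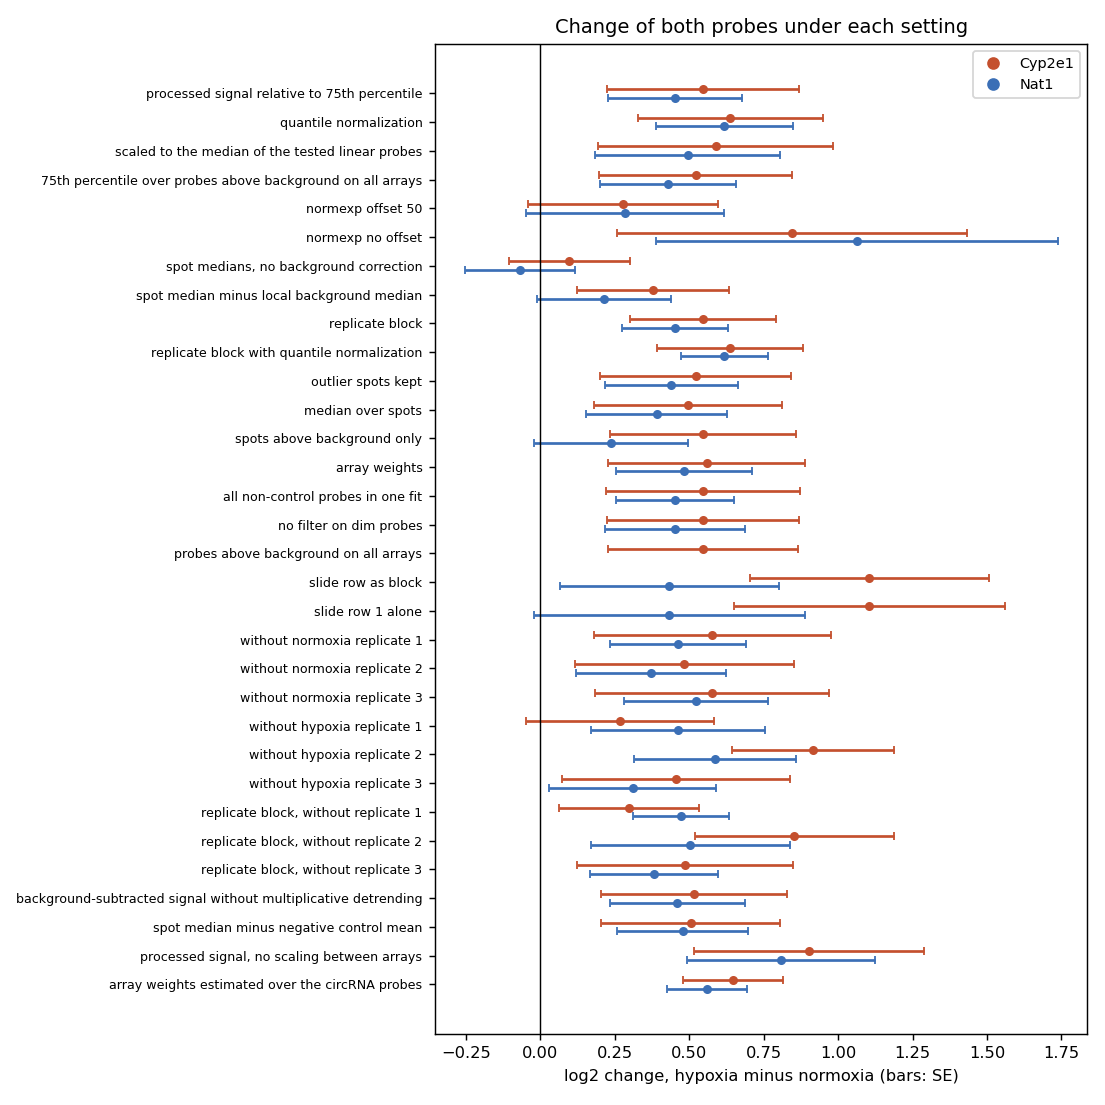
Log2 change, hypoxia minus normoxia, of Cyp2e1 (red) and Nat1 (blue) with SE under each processing setting. Cyp2e1 ranges from 0.10 to 1.10 and is above 0 in all 31 alternatives, and Nat1 ranges from -0.07 to 1.06 and is above 0 in 29 of 30. Several alternatives change only the SE or repeat another value, so the counts are not of separate checks. The bars for row 1 alone hold no spread between hypoxia samples.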

How the data were processed

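RNA left after RNase R digestion of total RNA from 6 lung samples was measured on 1-colour arrays. Per the file headers, Agilent Feature Extraction 11.0.1.1 made the deposited intensity values, with background subtracted and each array detrended but not scaled to the others; multiplicative detrending had no fit on normoxia 1. The header's build was rn4. The submitters' processing notes name limma with no role. The authors' value table, which lists circRNA probes only, was not used here. A probe's spots, those flagged as outliers left out, were averaged after scaling to the 75th percentile of non-control spots, and fitted with limma 3.58.1 in R 4.3.3 (Benjamini-Hochberg adjustment), a step tested on simulated data. Genes were matched through RefSeq transcripts of GRCr8 (39 of 62 linear probes). The members and lists were chosen with earlier results of these data known. Named probes were the members, the 3 nearest named probes in pattern, the neighbours in the order of changes and genes of the lists. The number of arrays limits the precision.

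Same-numbered samples were taken as pairs because their deviations from the group means correlated by 0.55, 0.71 and 0.21 over 12024 circRNA probes. The highest correlation of either sample with a different number was 0.18 in pairs 1 and 3 and -0.16 in pair 2. Pair 3 thus hardly stood out, and the labels do not state a pairing. Deviations from a group's own mean cancel out over its samples, so high same-number correlations push the others down. The low values between different numbers are therefore no separate support. Alternatives covered background, scaling, spots, filters, weights, slide row, the replicate block and each array left out. Plots used matplotlib 3.10.9.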

Additional observations from a re-analysis of the deposited data

How the results depend on the processing

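Cyp2e1 stayed above 0 in all 31 alternatives and Nat1 in 29 of 30. Several alternatives cannot change the difference, such as the replicate block and fits with another set of probes. Others repeat a value, as the row block and row 1 alone do. The counts are therefore not counts of separate checks. Each gene passed the adjusted limma threshold in 1 alternative, with array weights estimated over circRNA probes (0.65 and 0.56). Those weights rest mainly on normoxia 3 and hypoxia 3, and Gusb and Ndfip1 also passed with them. The Cyp2e1 difference of 0.55 moved to 1.10 with the slide row as a block and to 1.10 in row 1 alone, where hypoxia is hypoxia 1 only. The Nat1 difference of 0.45 turned to -0.069 in spot medians without background correction and moved to 0.21 with the local background median subtracted, to 1.06 under normexp without an offset and to 0.81 without scaling; the cause was not tested. With 1 array left out Cyp2e1 ran from 0.27 to 0.92 and Nat1 from 0.31 to 0.59. With the replicate number as a block the differences were the same, 0.55 (SE 0.25) and 0.45 (SE 0.18), and no call changed; with 1 pair left out of the block they ran from 0.30 to 0.85 and from 0.38 to 0.50. Gusb (-0.33) turned to 0.18 and 0.60 under normexp with and without the offset and to 0.028 without scaling, and Actb and Ndfip1 stayed above 0 in all 31. The median SD between spots of 0.13 for Cyp2e1 became 0.073 in uncorrected spot medians. The 2 linear probes that passed became 0 under normexp with or without the offset, without scaling, in 1 fit with all circRNA probes, and in the block without pair 1 or 3; 1 with array weights, with quantile normalization in the block, among probes above background on all 6 arrays and without any 1 normoxia array; 3 in row 1 alone and in the block without pair 2; 4 with the row as a block; and 13 with the circRNA-based weights.

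The background-subtracted signal without multiplicative detrending, subtraction of the negative control, the unscaled signal and the circRNA-based weights were added after seeing the data. Normexp used spot medians, since spot means were not used here. The deposited values could not be tried, as they list no linear probe, and Nat1 had no value among probes above background on all arrays. The other weights were estimated over the linear probes. Signal over background limits Nat1: 42 of its 60 spots were well above background, against all 60 for Cyp2e1.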
